A study of Mus musculus with 4 samples.

Results

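The comparison described here is that of the digit after lymph node removal (LNR) with the digit of the sham limb, over all genes and over the epithelial, stromal, mural, endothelial and nerve sheath cells of the tissue. Of the 4 single-cell libraries of the series, the 2 labelled LNR and LNR-Control were taken, and barcodes were kept with 200 to 5500 genes, at most 30000 unique molecular identifiers (UMIs) and at most 10% of UMIs from mitochondrial (mt-) genes. This kept 19827 of 21669 LNR barcodes and 20669 of 22539 sham barcodes, 40496 of the 93602 barcodes that pass the same limits in the whole series. The other 2 libraries, of mice on chow with the VEGFR3 inhibitor SAR131675 and of their diet controls, enter only as values set beside a result.

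Both libraries are described as terminal phalanx (P3) digits of female C57BL/6 mice (C57BL/6J in the study's methods) aged 6 to 8 weeks. By those methods the digits were cut for single cells at the proximal level of the phalanx before P3, so tissue outside P3 is included. The digits taken also included the middle digit, which the amputation protocol does not name. Hindlimb digits of 10 mice were pooled into each library, so each side is 1 pool and holds no replicate animal. The study's methods describe removal of the inguinal and popliteal nodes, and its results state that the opposite limb served as sham. The sample label of the sham library reads no treatment, whereas the series design calls it sham. The labels give no time after amputation. The study's text and a supplementary legend give 8 days after amputation for LNR single-cell values, in the phase of bone erosion. The labels place the LNR library in batch 1 and the sham library in batch 2, so batch and surgery cannot be told apart. No test can be made between them, and all values below describe these 2 libraries.

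Lymph nodes receive the lymph of a limb through collecting vessels, and their removal obstructs that drainage. The digit tip of the mouse regrows after distal amputation: epidermis closes over the stump, osteoclasts erode the bone, and a blastema of connective tissue cells forms new bone. The tip carries volar skin, a nail organ, hair follicles on its dorsal side, sweat glands, bone, joint lining, tendon, vessels and nerves, and each of these can be read from its own genes.

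The 2 libraries were sequenced alike. The kept barcodes of the LNR and sham libraries held 142866794 and 150624773 UMIs, with medians of 5725 and 5851 UMIs and of 1968 and 1973 genes a barcode. Mitochondrial genes took 3.23% and 3.40% of the kept UMIs. There were 101 kept barcode sequences present in both libraries, 0.509% and 0.489% of each. Scrublet called 7.41% and 6.97% of the barcodes doublets, and these were retained. Clusters were named from marker genes, and each class is called by its markers' cell type with the ending -like. At least 5% of the barcodes of its class held a UMI of 21 of 23 epithelial, 23 of 25 stromal, 13 of 13 mural, 14 of 14 blood endothelial, 7 of 7 lymphatic and 14 of 14 Schwann markers. Markers of abundant cells were found in every class: in Endothelial-like barcodes the epithelial markers summed to 7637 and 7757 counts per 1000000 UMIs of the class (CPM) in the LNR and sham libraries, beside 6904 and 6630 CPM for the blood endothelial markers.

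A single cluster was set apart, by a rule chosen after seeing the data. It held 385 barcodes of the sham library, 1.86% of its kept barcodes, and 4 of the LNR library, and it was left without a class as a Mixed cluster. Of its barcodes, 100% carried at least 3 epithelial markers, 99.0% at least 3 stromal markers and 93.6% at least 3 myeloid markers. Their median in the sham library was 14478 UMIs, and 65.7% of them held a UMI of the hair sheath keratin Krt25, against 3.31% of the Epithelial-like barcodes of that library. They are part of the values over all kept cells and of no class.

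Shares of the classes were near each other in the 2 libraries. Epithelial-like barcodes made up 43.6% of the LNR library (95% exact binomial interval 42.9 to 44.3) and 48.2% of the sham library (47.5 to 48.9), a log2 ratio of -0.15. Stromal-like barcodes made up 34.3% (33.6 to 35.0) and 30.2% (29.6 to 30.9), a log2 ratio of 0.18. Counted over the barcodes that were not Epithelial-like, the stromal log2 ratio was 0.06. Intervals here and throughout cover counting error only, not the spread between animals or pools. A share of barcodes also depends on how well a tissue comes apart, which was not measured.

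Mural-like barcodes, the smooth muscle cells and pericytes that wrap vessels, made up 3.63% of the LNR library and 2.94% of the sham library (log2 ratio 0.30, counting interval 0.15 to 0.46). Endothelial-like barcodes made up 5.03% and 5.06%, at a log2 ratio of -0.01. Within them the 761 and 812 blood vessel cells gave a log2 ratio of shares of -0.03, and the 237 and 233 lymphatic cells one of 0.08, with an interval of -0.18 to 0.35 that holds 0. Schwann-like barcodes numbered 183 and 175, or 0.923% and 0.847%, with an interval for the log2 ratio of -0.18 to 0.43. Of the classes outside the comparison, Mast-like barcodes stood farthest apart, at 230 (1.16%) against 165 (0.798%).

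**Figure D1:**
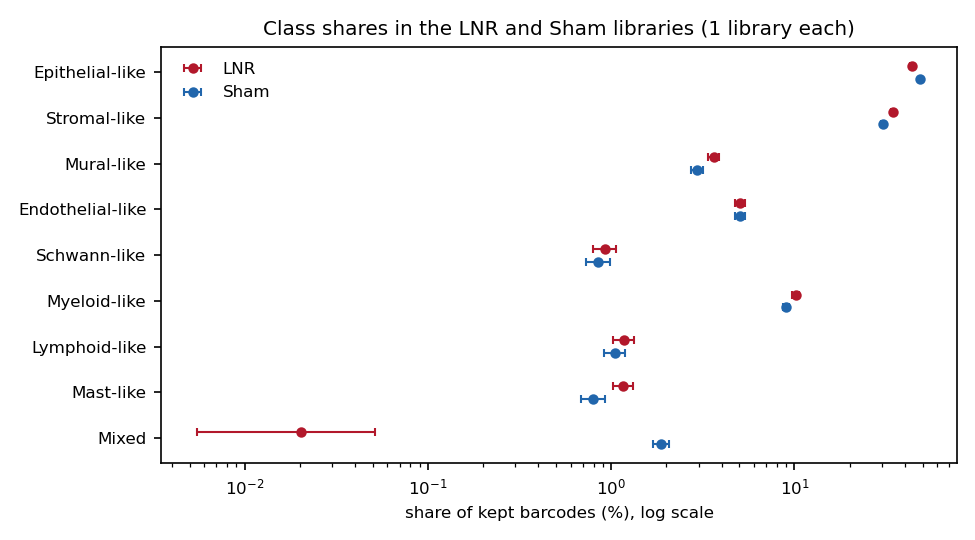
Share of kept barcodes in each class (x axis, percent, log scale) in the LNR and sham libraries, with 95% exact binomial intervals that cover counting error only. Epithelial-like shares are 43.6% and 48.2%, Endothelial-like shares 5.03% and 5.06%, and the Mixed cluster holds 0.0202% and 1.86%.

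Clusters within the classes, drawn a second time without the 169 genes past 2-fold in any class, are given by their leading genes. The cluster led by the osteoblast genes Mmp13, Bglap, Ibsp and Spp1 held 369 barcodes of the LNR library and 277 of the sham library (log2 ratio of shares 0.47, interval 0.25 to 0.70). The cluster led by the cartilage genes Cytl1, Snorc and Col10a1 held 143 and 91 (0.71, interval 0.32 to 1.11), or 145 and 109 (0.47, interval 0.10 to 0.84) when all variable genes were used, and the stromal cluster led by the gene a (agouti) and Igfbp3 held 196 and 157 (0.38). The cluster led by the lubricin gene Prg4 held 820 and 831 (0.04). In the epidermis the cluster led by Fcgbp and the mitotic genes H1f5 and Top2a held 2139 and 2618 (-0.23), and that led by Serpinb12 and Krt2 held 884 and 1080 (-0.23). The bone and cartilage clusters thus made up a larger share of the LNR library and these epidermal clusters a smaller share, with no replicate to give the spread of either. With all variable genes used and shares taken within the class, the bone and cartilage clusters stood at log2 ratios of 0.29 and 0.29. The Prg4 cluster then stood at -0.13 and that led by Serpinb12 at -0.08.

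Gene levels were also close. A level is the UMIs of a gene summed over the barcodes of a class, per 1000000 UMIs of that class in that library, and a log2 ratio is the LNR level over the sham level. Over all kept cells 16085 genes had at least 100 UMIs, and 97.7% of them lay within 1.5-fold of each other. There were 42 genes (0.261%) at least 2-fold higher in the LNR library and 41 (0.255%) at least 2-fold lower, with a median log2 ratio of 0.02. Of all genes compared, 57.5% lay above 0 over all kept cells, 47.4% in Epithelial-like, 55.3% in Stromal-like, 54.0% in Mural-like, 49.9% in Endothelial-like and 53.0% in Schwann-like barcodes, and the counts of list members above 0 given below are to be read beside these shares. By class, genes past 2-fold higher and lower were 39 (0.285%) and 22 (0.161%) of 13666 in Epithelial-like, 24 (0.185%) and 10 (0.0772%) of 12945 in Stromal-like, 6 (0.0931%) and 6 (0.0931%) of 6442 in Mural-like, 11 (0.124%) and 7 (0.0791%) of 8845 in Endothelial-like, and 21 (1.06%) and 9 (0.456%) of 1974 in Schwann-like barcodes. The same count over all kept cells was 0.516% in both directions together, against 1.10% for SAR131675 over its diet control.

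Many of these genes were carried by a few barcodes. Of the 42 genes higher in the LNR library over all kept cells, 22 had 50% of their UMIs, in the library where they were higher, in 5 barcodes or fewer, and 25 were still past 2-fold once the 5 barcodes with the most UMIs of the gene were left out of each library. Of the 41 lower genes, 31 were carried in this way and 20 were still past 2-fold. For each gene described below the value without those barcodes is given where it differs in its call.

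**Figure D2:**
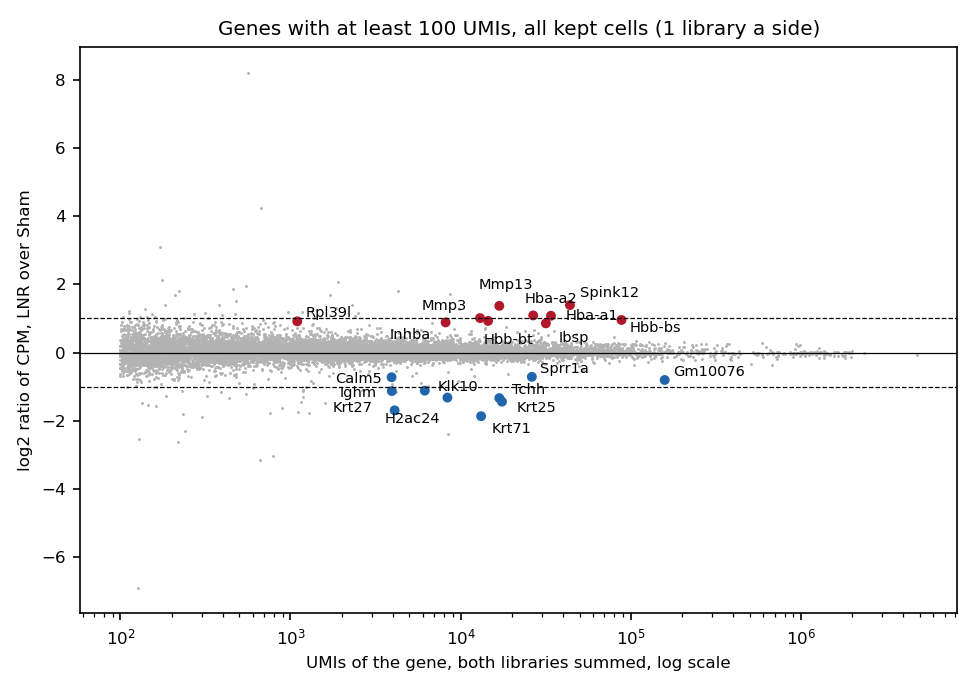
Log2 ratio of CPM, LNR over sham (y axis), against the UMIs of the gene in both libraries (x axis, log scale), 1 point for each of 16085 genes over all kept cells, with dashed lines at 2-fold. Named points are the 10 highest and 10 lowest genes with a UMI in at least 2% of barcodes of either library, from Spink12 at 1.39 to Krt71 at -1.87.

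Over all kept cells, the genes farthest above the sham library among those found in at least 2% of barcodes were Spink12, Mmp13, the hemoglobin genes Hba-a2 and Hba-a1, and Mmp3. Spink12, a secreted serine protease inhibitor, stood at 219 CPM in the LNR library and 83.5 CPM in the sham library (log2 ratio 1.39). Mmp13, a collagenase of bone and wound tissue, stood at 83.9 and 32.5 CPM (1.37). Mmp3, a matrix metalloproteinase that cleaves proteoglycans and other matrix proteins, stood at 59.7 and 29.7 CPM (1.01), and Inhba, a subunit of activin, at 36.3 and 19.7 CPM (0.88). In the SAR131675 and diet control libraries, made and sequenced apart, Spink12 stood at 127 and 105 CPM and Mmp13 at 6.46 and 8.34 CPM. Between the diet control and the sham library 35.9% of genes were past 2-fold, so levels across the pairs are only set side by side.

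Farthest below the sham library were keratins and a structural protein of the inner root sheath, the layers that mould the growing hair. Krt71 stood at 19.0 CPM in the LNR library and 69.5 CPM in the sham library (-1.87), Krt25 at 31.7 and 86.1 CPM (-1.44), and Tchh, trichohyalin, at 32.2 and 81.4 CPM (-1.34). The same genes also differed in the other pair, where Krt71 stood at 98.5 CPM with SAR131675 and 32.4 CPM in the diet control, and Krt25 at 118 and 31.4 CPM. Klk10, a kallikrein protease of skin, stood at 13.1 and 28.4 CPM (-1.12). It was not past 2-fold in the Epithelial-like class, which leaves out the Mixed cluster. Ighm, the heavy chain of immunoglobulin M, stood at 8.33 and 18.3 CPM (-1.13), but 1 barcode held 50% of its sham UMIs and the log2 ratio without the 5 highest barcodes was 0.18.

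The Epithelial-like class, 8648 and 9969 barcodes, held keratinocytes of the volar skin and nail, hair follicle, sebaceous and sweat gland. Its most abundant genes stood at near equal levels. Krt14, a keratin of basal cells, stood at 4230 CPM in the LNR library and 4417 CPM in the sham library (-0.06) and its partner Krt5 at 2664 and 2651 CPM (0.01). Of 9 basal genes measured, 5 lay above 0 and 4 below, with a median log2 ratio of 0.01 beside -0.01 for all genes of the class. Of 9 genes of the spinous layer, 2 lay above and 7 below (median -0.02), among them Krt10 at 6701 and 6737 CPM (-0.01). No basal or spinous gene was past 2-fold.

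Genes of the cornified envelope, which seal the outer skin, lay mostly below 0. Of 18 measured, 14 were lower in the LNR library and 4 higher, with a median of -0.10 and none past 2-fold. Outside the list, 6 late cornified envelope genes of the Lce family were past 2-fold lower (-1.73 for Lce1h to -1.06 for Lce1l), with 50% of the sham UMIs of each in 1 or 2 barcodes, and without the 5 highest barcodes they stood at -0.12 to 0.59. Filaggrin (Flg) stood at 242 and 312 CPM (-0.37) and loricrin (Lor) at 591 and 568 CPM (0.06). Of 14 genes of lipid synthesis in sebaceous glands, 12 lay below 0 (median -0.12), with the desaturase Scd1 at 995 and 1099 CPM (-0.14). Of 10 follicle stem cell and infundibulum genes, 5 lay on each side (median 0.01).

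Keratins and cytokines of wounded epidermis diverged among themselves. Of 13 measured, 7 lay above 0 and 6 below (median 0.05), and 2, Krt6b and Il1b, were past 2-fold higher. Krt16, which keratinocytes raise at a wound edge, stood at 91.3 and 52.8 CPM (0.79), and Krt6a at 224 and 185 CPM (0.28). Krt6b stood at 19.5 and 8.08 CPM (1.27), with 50% of its UMIs in 3 barcodes of each library. Krt17 was the other way, at 970 and 1030 CPM (-0.09). The cytokine gene Il1b stood at 2.08 and 0.809 CPM (1.36) and the chemokine gene Cxcl2, which lies outside the list, at 6.13 and 3.00 CPM (1.03), and both were under 2-fold without the 5 highest barcodes (0.84 and 0.78). In the Mixed cluster of the sham library 97 of 385 barcodes held a UMI of Il1b and 193 held one of Cxcl2. With that cluster counted as epithelial the log2 ratios were -0.12 for Il1b and -0.33 for Cxcl2, so their direction depends on where it is placed.

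Spink12 and Spink6, 2 Kazal-type protease inhibitors, were higher in the LNR library. Spink12 had 28615 UMIs in 299 Epithelial-like barcodes of the LNR library and 10805 in 264 of the sham library, 338 and 117 CPM (log2 ratio 1.54). These barcodes were 3.46% and 2.65% of the class, and 6 barcodes held 50% of the UMIs of Spink12 in each library. Without the 5 highest barcodes the log2 ratio was 1.46. Spink6 stood at 39.4 and 17.8 CPM (1.15, and 1.13 without those barcodes). Over all kept cells, which include the Mixed cluster, Spink6 was not past 2-fold. In clusters drawn without the genes past 2-fold, Spink12 stood at 1450 and 938 CPM in the cluster led by Krt42, Krt16 and Lhx2, where 92 and 90 barcodes held it. It stood at 914 and 83.0 CPM in the cluster led by Defb6 and Krt79, from 13 and 16 barcodes, and at 484 and 28.7 CPM in that led by Serpinb12 and Krt2, from 32 and 22. The cluster led by Hrnr and Lor went the other way, at 4.70 and 129 CPM from 10 and 6 barcodes. Of the 6 volar and nail genes measured, 5 lay above 0 (median 0.03), Spink12 alone past 2-fold, with Krt9, the keratin of volar skin, at 33.8 and 28.5 CPM (0.25) and Krt42 at 45.4 and 57.2 CPM (-0.33).

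The hair and nail plate keratins, hard keratins of fibre and nail, had a median of 2.54, the highest of the epithelial lists, over the 12 members that reached 100 UMIs, with 10 past 2-fold higher. These values depend on the Mixed cluster, which the class leaves out and which is led by several of these genes. Its sham barcodes held 980 UMIs of Krt36, 656 of Krt84 and 434 of Krtap8-1, beside 1077, 330 and 148 in the Epithelial-like class of that library. Over all kept cells the log2 ratios were 1.72 for Krt36, 1.79 for Krt84 and 1.39 for Krtap8-1 (-0.23 for Krtap8-1 without the 5 highest barcodes), and with the Mixed cluster counted as epithelial the median of the list was 0.97. The values also rest on very few barcodes. Krt36 stood at 59.8 CPM in the LNR library and 11.6 CPM in the sham library (2.36), with 50% of its UMIs in 3 and 2 barcodes, and Krt84 at 33.2 and 3.56 CPM (3.22), also with 50% in 3 and 2. These 2 were at least as far apart without the 5 highest barcodes, at 3.34 and 3.40. Krtap8-1 (3.53) came to 0.19, Krt33a (4.34) to 0.30 and Krt83 (2.81) to 0.13 once those barcodes were left out. Krt35, the member with the most UMIs in the sham library, was lower, at 36.8 and 51.2 CPM (-0.48). The minimum counts both libraries together, so Krt33b (198 LNR and 6 sham UMIs) and Krt33a (631 and 34) reached it through the LNR library. Another 5 members stayed under it. With no minimum beyond 1 UMI and 0.5 added, the median of the list was 1.91. Without the upper limits on genes and UMIs the median of the list was 0.39, and when clusters were drawn without the genes past 2-fold it was -0.04. In that second clustering the cluster led by S100a3 and Krt35, with 292 and 305 barcodes, took no class. The -0.04 thus leaves those barcodes out.

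The inner root sheath list was the lowest of the class, at a median of -1.20, with 8 of 10 members below 0 and 6 of them past 2-fold. Krt71 had 2644 UMIs in 125 barcodes of the LNR library and 8726 in 316 of the sham library, 31.2 and 94.2 CPM (-1.59, and -1.14 without the 5 highest barcodes). Krt27 stood at 10.4 and 27.3 CPM (-1.40), Tchh at 50.1 and 116 CPM (-1.21), and Krt25 at 51.5 and 118 CPM (-1.19). These values also rest on few barcodes, with 50% of the UMIs of Tchh in 1 LNR and 4 sham barcodes, of Krt71 in 5 and 3, of Krt27 in 4 and 5 and of Krt25 in 7 and 5. Without the 5 highest barcodes Tchh stood at -1.45, Krt27 at -1.44 and Krt25 at -1.01. Krt72 had 63 and 382 UMIs and Krt26 had 29 and 179, in at most 11 barcodes of a library. The transcription factor Gata3, also used by other keratinocytes, did not follow, at 94.9 and 94.1 CPM (0.01). When clusters were drawn without the genes past 2-fold, the cluster led by S100a3 and Krt35 held 292 and 305 barcodes, and in it Krt71 stood at 472 and 1264 CPM and Tchh at 696 and 1799 CPM. That cluster took no class and had the melanocyte marker Dct among its leading genes, so its barcodes are not a count of inner root sheath cells. A UMI of Krt71 was found in 0.250% and 1.63% of Stromal-like barcodes, which do not make it, beside 1.45% and 3.17% of Epithelial-like barcodes, so the gene was also less widespread in the LNR library among barcodes of other cells.

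Sweat gland genes lay slightly above 0, with 7 of 10 higher in the LNR library and a median of 0.08. Wfdc18, a protease inhibitor of glands, stood at 187 and 126 CPM (0.57) and was the highest of the list. Among the highest genes of the class outside the list, Fxyd2, a regulator of the sodium pump, stood at 117 and 66.5 CPM (0.81). Snhg9, a small nucleolar RNA host gene, stood at 25.2 and 15.2 CPM (0.73) and was spread over 1786 and 1267 barcodes. The cartilage gene Cytl1 and the osteopontin gene Spp1 also rank among the highest of the class (1.47 and 0.75, and 1.75 for Spp1 without the 5 highest barcodes). Cytl1 was seen in 2.01% and 0.712% of Epithelial-like barcodes and in 2.50% and 0.659% of Mural-like barcodes, neither of which is known to make it. In the LNR library 174 Epithelial-like barcodes held 182 UMIs of it, almost all of them single. The source of these UMIs was not tested, and they are not read as expression. Spp1 was seen in 4.13% and 1.12% of Epithelial-like and in 3.89% and 1.15% of Mural-like barcodes.

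The Stromal-like class, 6800 and 6249 barcodes, held fibroblasts, osteoblasts, cartilage, tendon and joint lining cells. Most of its matrix genes lay a little above 0. Of 17 collagen genes measured, 16 were higher in the LNR library, with a median of 0.11 beside 0.01 for all genes of the class, and none was past 2-fold. Type I collagen itself did not differ by more than a few percent, with Col1a1 at 2936 and 2998 CPM (-0.03) and Col1a2 at 4137 and 4127 CPM (0.00). Col6a1, of the beaded-filament collagen VI, stood at 589 and 546 CPM (0.11). Of 15 wound fibroblast genes, 11 lay above 0 (median 0.13), among them periostin (Postn) at 841 and 769 CPM (0.13), and 9 of 10 tendon genes did (median 0.12). No replicate library gives the spread of a shift of this size.

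Mmp13 was the enzyme farthest from the sham library. It had 10535 UMIs in 254 Stromal-like barcodes of the LNR library and 4509 in 135 of the sham library, 285 and 136 CPM (log2 ratio 1.07, counting interval 1.02 to 1.12, and 1.21 without the 5 highest barcodes). Over the class, more barcodes held the gene and they held more UMIs of it on average. In the LNR and sham libraries 16 and 14 barcodes held 50% of its UMIs. In the cluster led by Mmp13, Bglap and Ibsp, drawn without the genes past 2-fold, Mmp13 stood at 3756 and 2226 CPM, which is under 2-fold. There a near equal part of the barcodes held it, 145 of 369 and 107 of 277. Of 17 matrix enzymes and inhibitors measured, 14 lay above 0 (median 0.10) and Mmp13 alone was past 2-fold. The gelatinase Mmp2 stood at 600 and 543 CPM (0.14). Mmp13 was seen in 3.74% and 2.16% of Stromal-like barcodes, beside 1.57% and 0.301% of Epithelial-like barcodes, which have medians of 8514 and 8194 UMIs against 4259 and 4162, so the gene was also more widespread in the LNR library among barcodes of other cells.

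Other bone genes lay on both sides of 0. Ibsp, the bone sialoprotein of mineralising osteoblasts, stood at 491 and 338 CPM (0.54) and Spp1 at 586 and 453 CPM (0.37). Bglap, the osteocalcin of mature osteoblasts, was the other way at 164 and 201 CPM (-0.29), though its log2 ratio was 0.09 without the 5 highest barcodes. Dmp1, of late osteoblasts and osteocytes, had 31 and 89 UMIs (-1.68, interval -2.32 to -1.08, and -1.29 without those barcodes). Of 15 bone genes measured, 8 lay above 0 and 7 below (median 0.09). Inside the cluster led by Mmp13, Bglap and Ibsp, Ibsp was nearly level, at 5249 and 4857 CPM, and Inhba stood at 759 and 415 CPM. In the cartilage and joint lining list 8 of 11 lay above 0 (median 0.07), with Cytl1 at 552 and 414 CPM (0.41) and the lubricin gene Prg4, the most abundant of the list, at 24709 and 28355 CPM (-0.20).

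Signalling genes of the regenerating digit were close to the sham library. Of 18 digit and blastema transcription factors, 13 lay above 0 (median 0.14), with Prrx1 at 496 and 478 CPM (0.05), Twist1 at 274 and 246 CPM (0.16) and Msx1 at 127 and 127 CPM (-0.00). Of 23 BMP and Wnt ligands and antagonists, 18 lay above 0 (median 0.16). Bmp4, a bone-inducing ligand, stood at 140 and 122 CPM (0.20), the Wnt inhibitor Wif1 at 194 and 164 CPM (0.24) and the Wnt modulator Sfrp2 at 117 and 150 CPM (-0.36). None of either list was past 2-fold.

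Inflammatory genes of fibroblasts lay above 0 in 14 of 19 (median 0.15), and Saa3 alone was past 2-fold. Saa3, an acute-phase serum amyloid, had 1333 UMIs in 77 barcodes of the LNR library and 237 in 35 of the sham library, 36.1 and 7.17 CPM (2.33, and 2.42 without the 5 highest barcodes), with 50% of the UMIs in 4 barcodes on each side. It was higher in the LNR library in the cluster led by Mmp13, Bglap and Ibsp, at 162 and 54.1 CPM, and in the one led by C3 and Pi16, at 41.6 and 2.92 CPM, but not in the mural cluster led by Acta2, at 11.7 and 17.7 CPM. The chemokines Cxcl14 (715 and 589 CPM, 0.28), Cxcl12 (978 and 907 CPM, 0.11) and Ccl2 (77.2 and 63.9 CPM, 0.27) lay higher, whereas Cxcl1 did not, at 343 and 352 CPM (-0.03). Rsad2, an interferon response gene, was past 2-fold (2.00) through 1 barcode, and its log2 ratio was -0.41 without the 5 highest. Cfd, an adipocyte protease, had 8 and 489 UMIs (-6.09), almost all from 1 barcode of the sham library, and was at 0.84 without the 5 highest. The other 9 adipocyte genes stood on both sides, 6 of them above 0 (median 0.13), as did the adventitial and dermal fibroblast genes, 8 of 15 above 0 (median 0.03), with Clec3b at 983 and 1000.3 CPM (-0.03).

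Markers of other cells in the Stromal-like class are set beside these values. The 22 myeloid markers summed to 95.6 and 72.8 CPM and the 8 erythroid markers to 886 and 258 CPM in the LNR and sham libraries, with 1 erythroid marker at 0 UMIs. Fcer1g, a signalling chain of Fc receptors in immune cells, stood at 8.16 and 3.30 CPM (1.31). The part of such cells in the stromal differences was not tested.

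**Figure D3:**
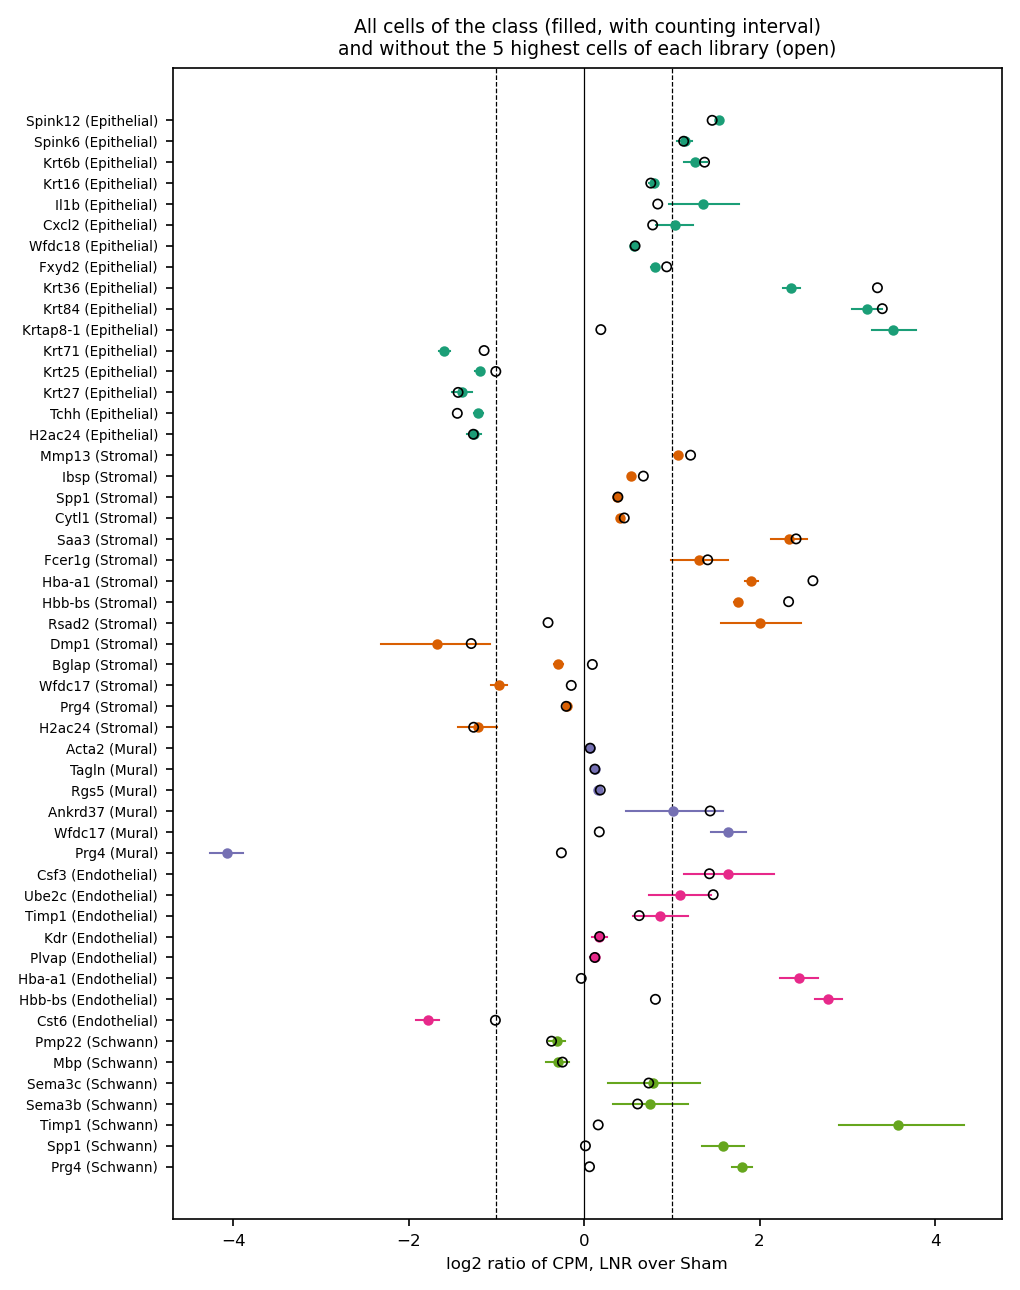
Log2 ratio of CPM, LNR over sham (x axis), of genes described in the text, with the class in brackets. Filled points use all barcodes of the class, bars are 95% counting intervals, open circles leave out the 5 barcodes of each library with the most UMIs of the gene, and dashed lines mark 2-fold, so that genes such as Mmp13 in Stromal (1.07 and 1.21) can be told from genes such as Prg4 in Mural (-4.07 and -0.26).

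The Mural-like class, 719 and 607 barcodes, had all 12 contractile genes above 0, at small differences. Acta2, the smooth muscle actin, stood at 8531 and 8126 CPM (0.07), Tagln at 6581 and 6053 CPM (0.12), and Myl9 at 3116 and 2865 CPM (0.12). The median of the list was 0.12 beside 0.02 for all genes of the class. Epithelial markers summed to 10460 and 13588 CPM in this class and stromal markers to 5505 and 6529 CPM. These markers were lower in the LNR library by more than the contractile genes were higher. Scarcer markers lay on both sides, with blood endothelial at 292 and 253 CPM, lymphatic at 26.9 and 11.8 CPM and melanocyte at 68.2 and 28.5 CPM. Myeloid markers stood at 108 and 123 CPM. The part of this background in the contractile difference was not tested. Of 11 pericyte genes, 7 lay above 0 (median 0.02), with Rgs5 at 3881 and 3470 CPM (0.16) and Pdgfrb, the receptor of pericyte recruitment, at 328 and 323 CPM (0.02).

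Of the 12 mural genes past 2-fold, 5 were still past it without the 5 highest barcodes. Ankrd37, a hypoxia-responsive gene, had 96 and 41 UMIs in 75 and 32 barcodes (1.02, interval 0.48 to 1.58, and 1.44 without those barcodes). Of the other 13 hypoxia and glycolysis genes of the class, 6 lay above 0 (median -0.04), none past 2-fold. Prg4 (-4.07) came from 1 barcode of the sham library that held 50% or more of its 3684 UMIs, and Wfdc17 (1.64), a secreted protease inhibitor, from 2 barcodes of the LNR library. Without the 5 highest barcodes these 2 stood at -0.26 and 0.17.

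The Endothelial-like class, 998 and 1045 barcodes, was level in its identity genes. Of 11 arterial genes 6 lay above 0 (median 0.02), of 10 venous genes 6 (median 0.05), and of 9 capillary genes 3 (median -0.05), beside a median of -0.00 for all genes of the class. Kdr, the main VEGF receptor of blood vessels, stood at 423 and 376 CPM (0.17), Plvap, of fenestrated vessels, at 1169 and 1075 CPM (0.12), and Flt1, a VEGF receptor that also acts as a decoy, at 464 and 453 CPM (0.03). Of 16 sprouting genes 10 lay above 0 (median 0.05), none past 2-fold. Of 10 lymphatic vessel genes outside the list used by the study, 5 lay above 0 and 5 below (median -0.01), with none past 2-fold. These levels are summed over 761 and 812 blood vessel and 237 and 233 lymphatic barcodes. They are thus not levels of lymphatic cells alone.

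Genes of endothelial activation and leukocyte adhesion lay above 0 in 4 of 12 (median -0.03). The adhesion molecules Selp (487 and 464 CPM, 0.07), Sele (377 and 406 CPM, -0.11) and Icam1 (344 and 346 CPM, -0.01) were near level. Csf3, which encodes the granulocyte growth factor G-CSF, was the member past 2-fold, with 138 UMIs in 37 barcodes of the LNR library and 44 in 27 of the sham library, 24.7 and 7.96 CPM (1.64, interval 1.14 to 2.16, and 1.43 without the 5 highest barcodes). In Stromal-like barcodes, which hold almost none, Csf3 was seen in 0.0882% and 0.0160% of barcodes, beside 3.71% and 2.58% of Endothelial-like ones. Myeloid-like barcodes went the other way, with 48 UMIs of Csf3 in 22 barcodes of the LNR library and 76 in 35 of the sham library. Timp1, an inhibitor of metalloproteinases, stood at 44.6 and 24.4 CPM (0.87). Ube2c, of mitosis, had 215 and 100 UMIs (1.09, and 1.47 without the 5 highest barcodes), while 9 of 16 division genes of the class lay above 0 at a median of 0.02. Cst6, a cystatin of skin, was lower at 106 and 365 CPM (-1.79), with 50% of its sham UMIs in 1 barcode and a log2 ratio of -1.01 without the 5 highest.

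Schwann-like barcodes, 183 and 175, stand for the nerve sheath, as cell bodies of sensory neurons lie outside the digit. All 13 myelin genes measured lay below 0, with a median of -0.31 beside 0.02 for all genes of the class and none past 2-fold. Pmp22 stood at 2719 and 3377 CPM (-0.31) and Mbp at 1295 and 1599 CPM (-0.30), both proteins of compact myelin. All 14 Schwann markers summed to 10728 and 13543 CPM in the class, while stromal markers summed to 15688 and 8269 CPM, mural markers to 1044 and 635 CPM and epithelial markers to 7290 and 10427 CPM. The summed stromal markers were thus higher in the LNR library by more than the myelin genes were lower. Much of that sum came from few barcodes, as Prg4 alone stood at 4692 and 1350 CPM. In each library 5 barcodes held 98.2% and 94.2% of its UMIs. The part of stromal RNA in the level of the myelin genes was not tested. Drawn without the genes past 2-fold, the Schwann-like cluster held 144 and 146 barcodes. That clustering also drew a stromal cluster of 40 LNR and 30 sham barcodes, of which 90% held Col1a1. Its leading genes were Itih5, Sbspon, Cpxm2, Slc2a1 and Gatm, among others, and Gatm and Sbspon also led the Schwann-like class used here. The class values may thus hold such stromal cells, and their part was not tested.

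Of 16 genes of the repair state that Schwann cells take after nerve injury, only Jun reached 100 UMIs, at 668 and 884 CPM (-0.40). Summed over the 16 genes the list stood at 846 and 1064 CPM (-0.33), of which Jun made up 668 and 884 CPM. The sum thus mostly repeats Jun, which is also in the immediate early list. Non-myelinating and nerve fibroblast genes lay on both sides, 5 of 11 above 0 (median -0.13), with the glucose carrier Slc2a1 at 648 and 397 CPM (0.71). Slc2a1 was also a leading gene of the stromal cluster given above. Of 19 axon guidance genes 4 reached the minimum, and all 4 lay above 0 at a median of 0.74. The semaphorins Sema3c (143 and 82.9 CPM, 0.79, interval 0.27 to 1.32) and Sema3b (209 and 124 CPM, 0.76, interval 0.33 to 1.19), the receptor Nrp2 (188 and 115 CPM, 0.71) and the netrin Ntn1 (149 and 101 CPM, 0.56) made up this group, each from 47 to 143 UMIs a library. In the same barcodes some markers of other cells were higher in the LNR library by as much, at log2 ratios of 0.92 for the stromal, 0.72 for the mural and 0.90 for the blood endothelial markers. Others were lower, at -0.52 for the epithelial, -0.97 for the lymphatic and -1.48 for the lymphoid markers. The part of these cells in the guidance genes was not tested. The other repair and guidance genes were under the minimum and were not compared.

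Of the 21 genes past 2-fold higher in the Schwann-like class 10 were still past it without the 5 highest barcodes, and of the 9 lower genes 4 were. Among genes seen in at least 2% of its barcodes, the highest were Ibsp, Timp1, Gpx3, Fxyd2 and Aqp1. Ibsp had 371 LNR and 4 sham UMIs (6.26), all of them in 5 and 3 barcodes, so no value is left without the 5 highest. Timp1 had 275 and 19 UMIs (3.58), and Fxyd2 had 217 and 42 (2.09), and without those barcodes these stood at 0.16 and -0.56. Gpx3, a secreted glutathione peroxidase, stood at 413 and 90.0 CPM (2.20, and 2.19 without those barcodes), Aqp1, a water channel, at 376 and 98.8 CPM (1.93, and 1.18), and Comp, a matrix protein of cartilage and tendon, at 193 and 52.9 CPM (1.86, and 1.95). Prg4 stood at 4692 and 1350 CPM (1.80), Spp1 at 944 and 316 CPM (1.58) and Col1a1 at 1459 and 570 CPM (1.36), and without the 5 highest barcodes these came to 0.06, 0.01 and 0.08. The lowest were the keratin Krt2 at 127 and 522 CPM (-2.04, and -0.60 without those barcodes), the Wnt modulator Sfrp5 at 109 and 284 CPM (-1.38, and -1.22) and the apolipoprotein Apoc1 at 104 and 259 CPM (-1.32, and -0.95). Krt15, a keratin of basal cells, stood at 280 and 625 CPM (-1.16, and -1.70). A UMI of Apoc1 was seen in 74.7% and 75.7% of Epithelial-like barcodes, beside 10.9% and 13.1% of Schwann-like ones. The source of the UMIs of Apoc1 and of these 2 keratins was not tested, and they are not read as nerve sheath expression.

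**Figure D4:**
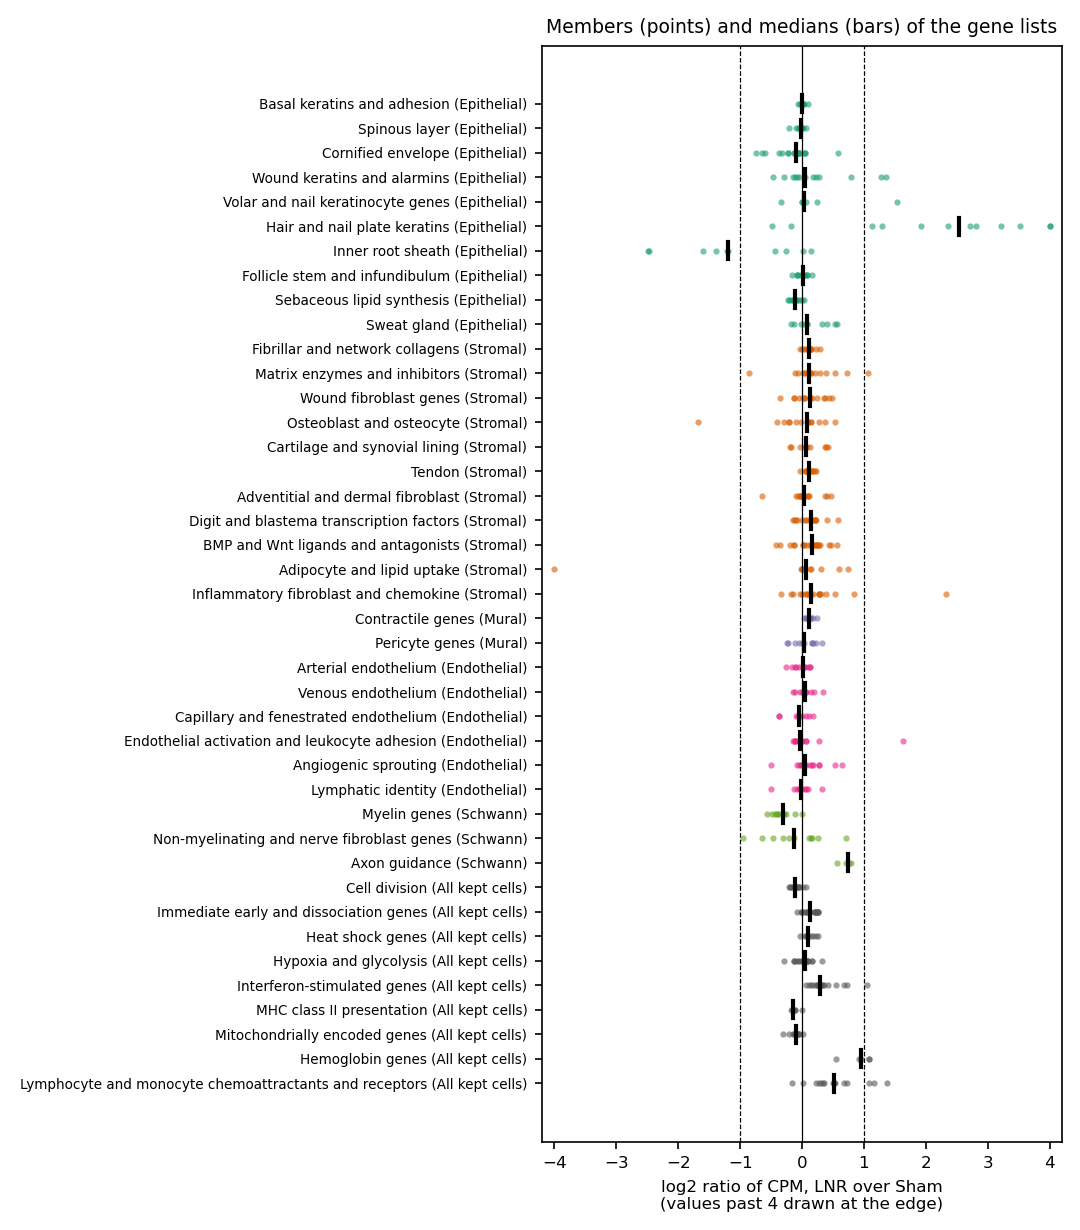
Log2 ratio of CPM, LNR over sham (x axis), of each member with at least 100 UMIs (points) and the median (bars) of the 41 gene lists with at least 4 such members, with the class in brackets, dashed lines at 2-fold and 3 points past 4 drawn at the edge. The hair and nail plate keratins (median 2.54, or 0.97 with the Mixed cluster counted as epithelial) and the inner root sheath (-1.20) lie away from lists such as the basal keratins (0.01) and the contractile genes (0.12).

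Programmes that run in every class were compared across them. Genes of cell division lay below 0 in 15 of 17 over all kept cells (median -0.11) and in 15 of 17 in the Epithelial-like class (-0.06), with medians of -0.06 in Stromal-like, -0.02 in Mural-like and 0.02 in Endothelial-like barcodes. Hmgb2, a chromatin protein of dividing cells, stood at 713 and 773 CPM over all kept cells (-0.12) and Top2a, the topoisomerase of mitosis, at 126 and 143 CPM (-0.19). Heat shock genes lay above 0 in all 10 measured in Stromal-like barcodes (median 0.13), with Hspa1b at 442 and 338 CPM (0.39), and in 8 of 10 in Epithelial-like (0.10), 9 of 10 in Mural-like (0.08), 5 of 10 in Endothelial-like (-0.02) and 1 of 8 in Schwann-like barcodes (-0.18). Immediate early genes lay above 0 in 18 of 20 over all kept cells (median 0.12), with Fos at 1333 and 1158 CPM (0.20), and in 15 of 20 in Epithelial-like (0.09), 13 in Stromal-like (0.06), 14 in Mural-like (0.06), 12 in Endothelial-like (0.01) and 9 in Schwann-like barcodes (-0.02). Genes of these last 2 lists are known to respond to tissue dissociation as well.

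Interferon-stimulated genes lay above 0 in all 19 measured over all kept cells (median 0.30), in 8 of 10 in Epithelial-like (0.10), in 17 of 18 in Stromal-like (0.13) and in 7 of 7 in Mural-like barcodes (0.09), but in 4 of 14 in Endothelial-like barcodes (-0.12). Ifi27l2a stood at 116 and 94.1 CPM over all kept cells (0.31) and Bst2, a tether of budding viruses, at 25.5 and 21.4 CPM (0.26). With both libraries weighted to their pooled mix of clusters, by UMIs, the median over all kept cells was 0.11. Chemoattractants and their receptors lay above 0 in 15 of 16 over all kept cells (median 0.51, and 0.21 at the same mix), with Ccl5, which draws T cells and monocytes, at 11.2 and 5.30 CPM (1.08), Ccl22 at 1.88 and 0.724 CPM (1.38) and the node-homing receptor Ccr7 with 214 and 101 UMIs (1.16, and 0.78 without the 5 highest barcodes). By class 6 of 7 of them lay above 0 in Epithelial-like (median 0.52), 7 of 10 in Stromal-like (0.33), 4 of 6 in Endothelial-like (0.12) and 1 of 5 in Mural-like barcodes (-0.46). In Epithelial-like barcodes the highest member was Cxcr4, a receptor of leukocytes (0.78), the summed list stood at 133 and 134 CPM (-0.01), and the 22 myeloid markers summed to 66.2 and 55.1 CPM (0.27). The part of such cells in these values was not tested. The 7 genes of MHC class II presentation lay below 0 in 6 cases over all kept cells (median -0.14), with Cd74 at 389 and 421 CPM (-0.11). Myeloid-like barcodes, outside the classes compared, held 95.8% and 94.2% of the Cd74 UMIs of the 2 libraries, and in them all 7 genes lay below 0 (median -0.37), with Cd74 at 5193 and 6618 CPM (-0.35). At the lower levels of the other classes, where the list summed to 35.7 and 33.5 CPM in Epithelial-like and 59.8 and 146 CPM in Schwann-like barcodes, 5 of 6 lay above 0 in Epithelial-like (0.05), 5 of 6 in Stromal-like (0.19) and 3 of 4 in Endothelial-like barcodes (0.06), and none reached 100 UMIs in Schwann-like ones. The cluster led by Cd207 and these genes held 126 and 186 barcodes. All 13 mitochondrially encoded genes lay below 0 in Stromal-like (median -0.11) and in Endothelial-like barcodes (-0.14). So did 12 of 13 over all kept cells (-0.10), in Epithelial-like (-0.06) and in Mural-like barcodes (-0.13), and 7 of 12 in Schwann-like ones (-0.03). Hypoxia and glycolysis genes lay on both sides of 0 in every class, with medians from -0.07 to -0.00 in the classes and 0.04 over all kept cells, and with members from -0.52 (Eno1) to 0.64 (Adm) in Endothelial-like barcodes.

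The list of 4 hemoglobin genes and Alas2, the first enzyme of heme synthesis in red cell precursors, lay above 0 in all 5 measured over all kept cells (median 0.95), with Alas2 the lowest (0.55), and in 5 of 5 in Epithelial-like barcodes (0.51), where Alas2 stood at 0.06. In Stromal-like, Endothelial-like and Mural-like barcodes the hemoglobin genes alone reached the minimum, and none did in Schwann-like barcodes. They lay above 0 in 4 of 4 in Stromal-like (1.78) and 4 of 4 in Endothelial-like barcodes (2.90), but in 2 of 4 in Mural-like ones (-0.00). Over all kept cells Hbb-bs stood at 400 and 206 CPM (0.95) and Hba-a1 at 158 and 75.0 CPM (1.08), and in Stromal-like barcodes Hbb-bs stood at 479 and 142 CPM (1.75). A UMI of Hbb-bs was seen in 12.6% to 17.7% of the LNR barcodes of each named class and in 3.03% to 11.5% of the sham barcodes. Red cells make hemoglobin, no class here holds them, and the protocol lysed them before loading. In Stromal-like barcodes 12 held 50% of the 17672 LNR UMIs of Hbb-bs. The source of these UMIs was not tested, and they are not read as expression of the classes. The difference was uneven between clusters, with Hbb-bs higher in 21 of 29 and lower in 8. In Endothelial-like barcodes the genes stood 2.45 to 3.68 higher on the log2 scale, where 1 or 2 barcodes held 50% of the LNR UMIs, and without the 5 highest Hbb-bs stood at 0.81, Hbb-bt at 0.67, Hba-a2 at 0.90 and Hba-a1 at -0.03. The near-identical Hba-a1 and Hba-a2 genes share reads and their split is uncertain.

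A difference of similar size in every cluster was seen for Gm10076, a gene model near-identical to a ribosomal protein gene, so its count may hold reads of copies. It had 55600 LNR and 102522 sham UMIs, 389 and 681 CPM (-0.81), spread over 14640 and 17271 barcodes. It was lower in the LNR library in 31 of 31 clusters, by -0.97 to -0.56 on the log2 scale. H2ac24, a replication-dependent histone gene with close copies, stood at 16.1 and 40.2 CPM (-1.32) and was lower in 22 of 22 clusters, from -2.19 to -0.59. Its log2 ratio was -1.26 in Epithelial-like, -1.21 in Stromal-like and -1.43 in Endothelial-like barcodes. Mmp13, by contrast, was higher in 10 of 11 clusters at ratios that differed widely. Library, batch and surgery are the same grouping here and cannot be told apart for these genes or for any other.

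**Figure D5:**
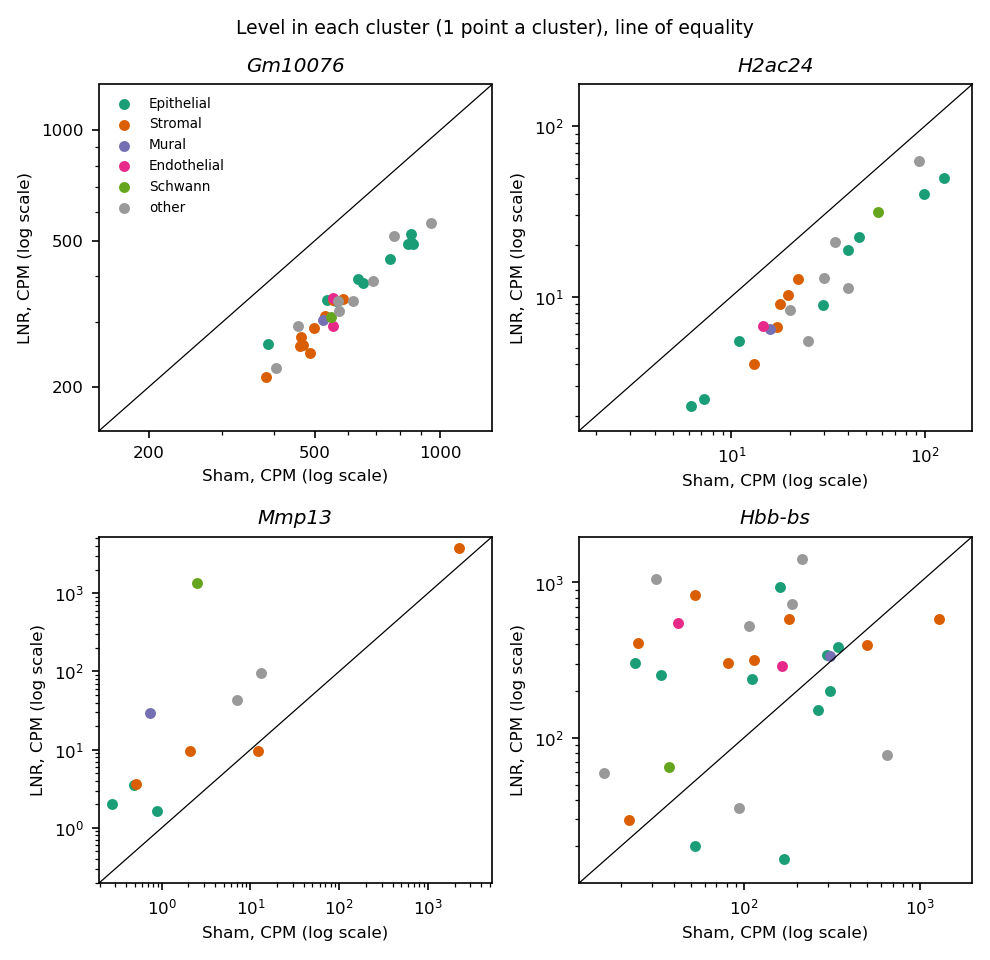
Level in each cluster (1 point a cluster, coloured by class) in the sham library (x axis, CPM, log scale) and the LNR library (y axis, CPM, log scale), with the line of equality, for 4 genes in clusters drawn without the genes past 2-fold. All 31 points of Gm10076 and all 22 of H2ac24 lie below the line, whereas 10 of 11 of Mmp13 lie above it and those of Hbb-bs lie on both sides.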

How the data were processed

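Digits of the LNR and sham limbs were measured by 10x Genomics 3′ single-cell RNA sequencing. The authors deposited, per library, filtered matrices of UMI counts per gene and barcode, not normalized. Their submitters' processing notes name Cell Ranger 6.1.2 and the build GRCm39. The matrix headers carry 6.1.2 for the LNR and sham libraries and another release for the diet pair. All 33696 genes of the files were read, and the kept barcodes are those within the limits that open the report.

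Clustering used scanpy 1.11.5 on Python 3.11.15, with leidenalg 0.10.2. Counts were scaled to 10000 per barcode, 2000 variable genes, 30 components and 20 neighbours were used, and Leiden clusters were drawn at a resolution of 0.7. A cluster took the class whose markers scored highest. The scoring rule and the rule that set the Mixed cluster apart were chosen after seeing the data, as was the second clustering without 169 genes. Doublets were scored with Scrublet, within scanpy, and left in.

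UMIs were summed per class and library. A gene was compared at 100 or more UMIs over both libraries, and was past the fold at a log2 ratio of at least 1 in either direction. Intervals of levels are exact Poisson intervals, those of shares exact binomial (Clopper-Pearson) and those of ratios exact conditional ones (scipy 1.17.1), at 95%. With 1 library a side no test was run and no p-value is given. The members and the 42 gene lists were chosen with earlier results of these data known. Genes are named by rule: the 10 highest and 10 lowest per class with a UMI in at least 2% of barcodes, the 4 members of each list with the most UMIs, and all members past the fold. The leading genes of clusters and the Lce genes were named after their values were seen. The code was tested on simulated counts. Alternatives varied the limits, doublets, clustering, classes, scaling, minimum, fold and the 5 highest barcodes. Sequences were not used here. From the lymphatic list 2 genes that the study's own list holds were left out after seeing the data. Some genes of the Schwann-like class are not reported here.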

Additional observations from a re-analysis of the deposited data

How the results depend on the processing

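Of 203 alternative values of the class shares, counts of genes past 2-fold and counts of lists, 166 stayed close to the value reported and 37 moved. The counts over all kept cells and in the Epithelial, Stromal, Mural, Endothelial and Schwann classes, both directions together, were 83, 61, 34, 12, 18 and 30. They were 226, 202, 167, 163, 146 and 231 at a minimum of 30 UMIs, 3756, 3880, 4054, 3883, 3725 and 4711 with no minimum beyond 1 UMI and 0.5 added, and 371, 243, 158, 143, 117 and 147 at a fold of 1.5. At a minimum of 300 UMIs they were 19 in Stromal, 4 in Mural, 8 in Endothelial and 11 in Schwann. The Mural count was 30 with no upper limit on genes or UMIs, 33 with classes set per barcode and 33 when clustered without the genes past the fold. Classes per barcode also gave 58 in Stromal and 7 in Schwann. With each library clustered alone the counts were 124 in Epithelial, 30 in Endothelial and 172 in Schwann, and the log2 ratio of the Schwann share was 0.47. With the mixed cluster counted as Epithelial the count was 126 and the share ratio -0.20. The mean over cells gave 33 in Endothelial. Over barcodes that are not Epithelial the share ratio was 0.059 for Stromal and 0.052 for Myeloid. Clustered without the genes past the fold, 5 lists had a median 0.5 or more from that of all genes, against 8. Fewer or more genes pass a minimum by its construction, and for the other moves the cause was not tested.

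Some named genes reversed. With no upper limit Spink5 in Mural stood at 0.13 and Krtap8-1 in Epithelial at -0.020. With Scrublet doublets removed Spink12 in Stromal stood at -0.80 and Wfdc17 in Mural at -0.21, and with each library alone Wfdc17 stood at -1.09. With classes per barcode Prg4 in Mural stood at 0.23, Hbb-bs and Hba-a1 in Endothelial at -0.67 and -1.17, and Col1a1 in Schwann at -0.45. With the mixed cluster as Epithelial, Cxcl2 stood at -0.33 and Il1b at -0.12. Clustered without the genes past the fold, Krtap8-1 stood at -2.21, Krt31 at -0.041, Krt33b at -4.07 and Krtap13-1 at -2.48. That setting left the cluster led by S100a3 and Krt35 out of the Epithelial class. Without the 5 highest barcodes Ighm over all kept cells stood at 0.18, Hba-a1 in Endothelial at -0.033, H1f5 and Fxyd2 in Schwann at 0.69 and -0.56, Krtap11-1 and Krtap13-1 in Epithelial at -0.17 and -0.95, and Cfd and Rsad2 in Stromal at 0.84 and -0.41. Without those barcodes 52 named genes past 2-fold were still past it, 25 came under it and 8 reversed. The median moved for 18 lists with the mean over cells and for 15 with classes per barcode. The settings with the mixed cluster and without the genes past the fold were chosen after seeing the data. No paired analysis was possible because each group has 1 library. Nothing here gives the spread between animals, and genes under 100 UMIs in a class were not compared.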

Other observations

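The immune classes lie outside the comparison and are given as values, named after they were seen. Among clusters drawn without the genes past 2-fold, the cluster led by the neutrophil genes S100a9 and S100a8 held 383 barcodes of the LNR library and 283 of the sham library, a log2 ratio of shares of 0.50 with a counting interval of 0.27 to 0.72. That led by Mcpt4 and Cma1, proteases of mast cells, held 231 and 166 (0.54, interval 0.24 to 0.83). Another led by Pf4 and C1qa, genes of resident macrophages, held 1014 and 920 (0.20, interval 0.07 to 0.33). By contrast the cluster led by Cd207, the langerin gene of Langerhans cells, held 126 and 186 (-0.50, interval -0.84 to -0.17). All 4 intervals cover counting error only and are not adjusted for the number of clusters looked at.

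In Lymphoid-like barcodes, 232 and 216 in number, Ccl5 had 1358 LNR and 598 sham UMIs (log2 ratio 1.07), and Gzma, a protease of cytotoxic lymphocytes, had 350 and 129. Immunoglobulin genes were uneven, with Igkc at 859 and 6613 UMIs in 8 barcodes of each library, Ighm at 69 and 1716 UMIs in 31 and 26, and Ighg2b at 556 and 1 UMIs in 2 and 1. In Myeloid-like barcodes Ccl22, which draws cells that bear Ccr4, had 219 and 91 UMIs (1.08), and Ccl12, a monocyte chemokine, had 253 and 117 (0.93).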
